A study of Mus musculus with 31 samples.

Results

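The comparison is between vehicle-treated control mice at 21 days and at 2 days of a chemically induced colorectal cancer (CRC) experiment. It uses the 3 arrays titled CRC at 21 days (1 male and 2 females) and the 4 arrays titled CRC at 2 days (2 males and 2 females), chosen by their labels alone, 7 of the 31 arrays of the series. All mice were BALB/c. Both groups carried the same chemical treatment: an injection of azoxymethane (AOM), a carcinogen that damages colon DNA, before the experiment began, then dextran sodium sulphate (DSS), an irritant of the colon epithelium, in the drinking water during the first days. None of these 7 mice received E171, the food-grade titanium dioxide that the other arm (CRC + E171) was given by gavage; controls were gavaged with water. The 2-day mice were killed while DSS was being drunk and the 21-day mice after it had been withdrawn, so time since AOM, time since DSS, days of gavage and age cannot be told apart. The hour of killing is not given in the sources used here. RNA came from the distal colon of 1 mouse per array.

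Each value below is a log2 signal relative to the 75th percentile of its own array, so 0 is the level of a moderately bright probe, and a level is not compared between genes. A difference is the mean of the 21-day arrays minus the mean of the 2-day arrays on that log2 scale, with its standard error (SE) from limma, which was fitted to all 8 groups of the series. Of 19845 genes tested, 0 (0.0%) had an adjusted p below 0.05 in limma (smallest adjusted p 0.286), and 1085 (5.47%) had an unadjusted p below 0.05. A differentially expressed gene (DEG) is used here in the sense of a linear fold change of at least 1.5 and an unadjusted p below 0.05. This rule gave 715 DEG (3.6%), with 421 (2.12%) higher and 294 (1.48%) lower at 21 days. No gene named here passed the correction for all genes, and every DEG below is a call without it. The 12 largest increases and the 12 largest decreases named below were chosen among DEG whose arrays did not overlap between the days, so in these genes the lack of overlap comes from the choice. In 470 of the 715 DEG (65.7%) the 3 arrays of 21 days did not overlap the 4 of 2 days. Over all genes tested the arrays did not overlap in 1097 genes higher at 21 days (5.53%) and 1037 lower (5.23%). An exact permutation test over the 35 regroupings of 3 and 4 arrays cannot give a two-sided p below 0.0571, so no single gene could reach 0.05 by it.

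The arrays differed in tissue content. The female-1 array of 21 days stood apart from the other 6, with a median correlation of 0.951 to its own group and 0.939 to the other group, and it alone was high in squamous epithelium genes (list median 5.50 above the mean of the 7 arrays, against at most -0.25 on the other 6). Pancreatic acinar genes were high on the male-2 array of 2 days (5.21, against at most 0.76). B cell genes were low on the male-1 array of 2 days (-2.03) and on the female-1 array of 21 days (-3.25). Colon epithelium was present throughout: Epcam, an epithelial adhesion molecule, had a level of 4.85 ± 0.21 (SD, n = 4) at 2 days and 4.45 ± 0.32 (SD, n = 3) at 21 days. Xist and Y-linked transcripts matched the labelled sex on all 7 arrays. The 2-day and 21-day arrays lay on 4 different slides with none shared. Scan day 1 held 2 arrays of each group, and values within that day are given where they bear on a result. Without the female-1 array of 21 days the DEG numbered 356, without the female-2 array of 2 days 402 and without the female-2 array of 21 days 1186. They numbered 1032 without the male-1, 751 without the male-2 and 530 without the female-1 array of 2 days. Leaving out the male-1 array of 21 days gave 630. A list count below with an array left out stands beside the count over all genes in the same fit.

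The circadian clock is a loop of transcription factors present in nearly all cells, colon epithelium included. ARNTL (BMAL1) with CLOCK or NPAS2 binds E-boxes and drives the Per, Cry, Nr1d and PAR bZIP genes (Dbp, Tef, Hlf), whose products then repress or follow the drive. NR1D1 and NR1D2 in turn repress Arntl and Npas2 through ROR elements, so Arntl transcripts peak when Nr1d1 and Dbp transcripts are low. The levels of these genes therefore vary with the phase of the clock. Whether phase differed between the groups was not tested.

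All 14 tested clock genes of the phase opposite to Arntl had differences above 0, with a median of 1.40 on the log2 scale (all genes: -0.02). Of these, 7 were DEG higher at 21 days (50%, against 2.12% of all genes), and in 10 the arrays of both days did not overlap (all genes: 5.53%). All 6 tested genes of the Arntl phase had differences below 0, with a median of -0.79. Of these, 2 were DEG lower (33.3%, against 1.48% of all genes), and in 3 the arrays did not overlap (all genes: 5.23%). The number of DEG in the opposite phase was 3 without the female-1 array of 2 days, 3 without the male-1 array of 21 days and 4 without the female-2 array of 2 days. Within scan day 1 the medians were 1.44 and -0.62.

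Ciart, a repressor of ARNTL and CLOCK, stood at -3.65 and -4.31 in the males and -6.31 and -5.69 in the females of 2 days. At 21 days it stood at -1.67 in the male and -1.84 and -2.05 in the females. All 21-day arrays lay within a narrow band, and the difference was 3.14 (SE 0.79), an 8.81-fold higher signal (unadjusted p = 0.000492, adjusted p = 0.714). It was a DEG without any 1 of the 7 arrays. Bhlhe41 (DEC2), another repressor of the clock, read -5.73 and -5.08 in the 2-day males, -6.22 and -5.84 in the 2-day females and -4.56, -3.92 and -4.85 at 21 days. It was 2.41-fold higher (1.27, SE 0.40), again with no overlap. Tef, a PAR bZIP factor, read 0.31 and -0.20 in the males and -0.93 and -1.16 in the females of 2 days, against 1.24, 1.05 and 0.92 at 21 days (difference 1.56, SE 0.64).

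The promoters of the opposite-phase genes were read for the E-box, since they moved together. Of the 7 DEG, all with a promoter in the table, 3 carried it, and these 3 windows are shown from GRCm38.p6 (RefSeq) on the strand of the gene, 5′ to 3′, each ending before the annotated start, with the E-box CACGTG in capitals. They lie at chr3:95882242-95882369 (minus strand), chr6:145865543-145865598 (minus strand) and chr15:81802521-81802576 (plus strand).
Ciart: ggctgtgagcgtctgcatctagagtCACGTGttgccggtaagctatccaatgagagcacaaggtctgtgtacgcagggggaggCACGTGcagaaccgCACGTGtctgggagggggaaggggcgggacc
Bhlhe41: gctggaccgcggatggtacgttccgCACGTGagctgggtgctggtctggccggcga
Tef: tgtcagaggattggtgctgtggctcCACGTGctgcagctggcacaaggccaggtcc
Ciart carried 3 E-boxes, the first starting 116 and the last 44 bases before the start, and Bhlhe41 and Tef carried 1 each, at 153 and 127 bases. The E-box, whose letters read the same on both strands, was present in the 250 bases before a start in 4 of the 11 opposite-phase genes that had a promoter in the table (36.4%) and in 1313 of 15531 tested genes (8.45%). It is a short sequence and a match describes letters, not binding, and the clock lists hold known targets of these elements.

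Dbp, the most strongly oscillating PAR bZIP factor, read 4.55 and 3.66 in the 2-day males, 1.07 and 0.23 in the 2-day females, and 5.42, 4.97 and 5.41 at 21 days. The 2-day males lay nearer to the 21-day arrays than the 2-day females, and the difference was 2.89 (SE 1.14, 7.41-fold). Nr1d2 (REV-ERB beta) was higher by 1.80 (SE 0.74), Hlf by 1.92 (SE 0.77) and Usp2, a deubiquitinase under clock control, by 1.28 (SE 0.59), all 3 DEG without overlap. Under 25 other settings the result was weaker in 9 for Usp2, 6 for Nr1d2, 5 for Tef, 3 for Hlf and 3 for Dbp. Cry2 (0.71, SE 0.38), Wee1 (0.87, SE 0.56), Per2 (0.49, SE 0.51), Bhlhe40 (0.34, SE 0.31) and Per1 (0.56, SE 0.27) had positive differences that were not DEG.

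Per3 was close to the DEG rule: it read -0.96 and -1.59 in the 2-day males and -2.18 and -2.64 in the 2-day females, against -0.29, -0.37 and -0.35 at 21 days (difference 1.51, SE 0.73, unadjusted p = 0.0501). The groups did not overlap, and the 21-day arrays differed by little. Its promoter is shown for the D-box, the element that DBP, TEF and HLF bind (TTATGTAA, TTACGTAA or TTATGCAA on either strand, here in capitals), at chr4:151044791-151044895, minus strand.
Per3: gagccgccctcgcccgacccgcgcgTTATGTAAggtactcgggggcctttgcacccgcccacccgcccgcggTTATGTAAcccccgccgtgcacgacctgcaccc
The D-box occurred 205 and 158 bases before the Per3 start. It was present in 2 of the 11 opposite-phase promoters (18.2%) and in 269 of 15531 (1.73%).

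On the other side of the loop, Arntl read -2.0 and -1.83 in the 2-day males, -0.89 and -0.69 in the 2-day females, and -3.73, -4.05 and -3.03 at 21 days. It fell by 2.25 (SE 0.57), a 4.77-fold lower signal (unadjusted p = 0.000576, adjusted p = 0.714), and remained a DEG without any 1 of the 7 arrays. Npas2, the partner of ARNTL that stands in for CLOCK, fell by 1.06 (SE 0.32) and likewise remained a DEG each time. Clock itself did not differ at the DEG rule (-0.19, SE 0.26), nor did Cry1 (-0.51, SE 0.57) or Nfil3, a repressor of D-box genes (-1.42, SE 0.94). The Arntl promoter is shown for the ROR element (TNGGTCA on either strand, in capitals), through which NR1D1 represses it, at chr7:113207240-113207315, plus strand.
Arntl: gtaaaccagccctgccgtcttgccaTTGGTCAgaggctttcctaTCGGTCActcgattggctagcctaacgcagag
The elements began 200 and 181 bases before the start. A match was present in 2 of 5 Arntl-phase promoters (40%), 3 of 11 opposite-phase promoters (27.3%) and 1587 of 15531 promoters of tested genes (10.2%).

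**Figure D1:**
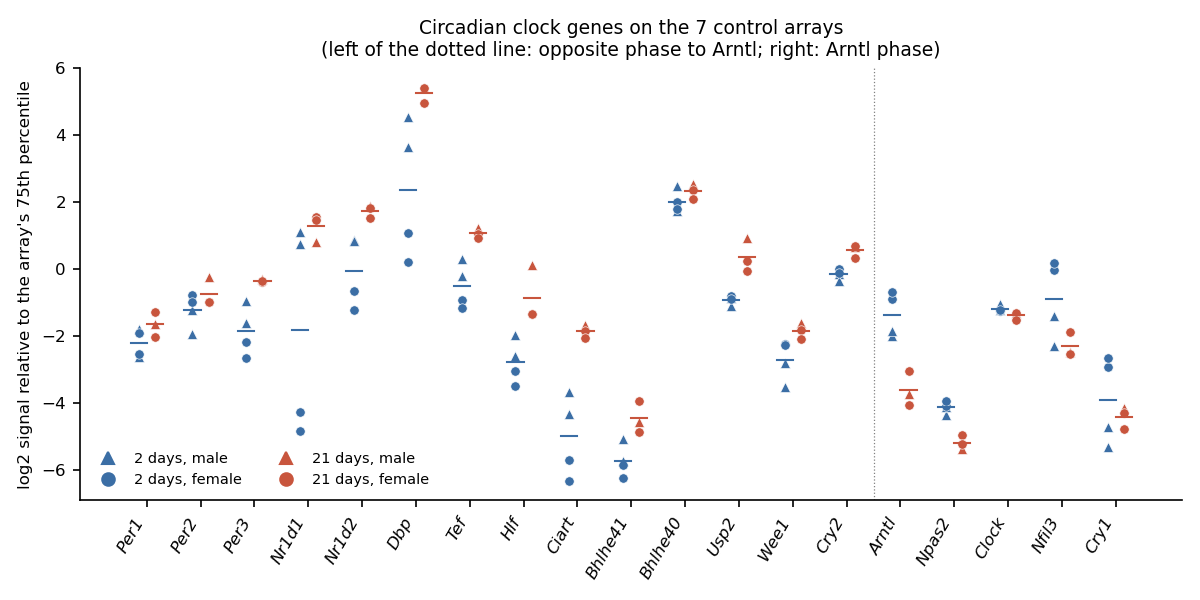
Log2 signal of 19 clock genes, relative to the 75th percentile of the array, on the 4 arrays of 2 days (blue) and the 3 of 21 days (red), with triangles for males, circles for females and a bar at each group's mean. The blue points of Nr1d1 and Dbp part by sex, with both females far below both males, while the 21-day arrays lie close together (Dbp between 4.97 and 5.42).

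In many clock genes the spread at 2 days followed the sex of the mouse. Of the 14 opposite-phase genes both 2-day males were above both females in 8, and both females above both males in 3 (Per2, Wee1 and Cry2). Over all 19845 genes tested the males were above in 4501 and the females in 3909, so the count of 3 was near the share of all genes. Nr1d1 (REV-ERB alpha) read 1.11 and 0.76 in the 2-day males and -4.27 and -4.83 in the 2-day females. At 21 days it read 0.82 in the male and 1.56 and 1.48 in the females. The 2-day males thus lay at the 21-day level and the 2-day females far below it, and the comparison over all 7 arrays was not a DEG (3.1, SE 1.55, unadjusted p = 0.0567). Since the 2-day females were known to be low in these genes, differences among females alone, with 2 mice a day, are given as a description. They were 6.07 for Nr1d1, 4.54 for Dbp, 4.06 for Ciart, -2.75 for Arntl and -1.75 for Cry1, but 0.30 for Wee1 and -0.10 for Per2. The males of 21 days numbered 1.

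Much of this order of the sexes was present at 2 days in the E171 arm, in other mice on other slides. Nr1d1 read 0.34 and 1.07 in those males and -5.08 and -5.20 in those females, and Dbp read 4.09 and 4.54 in the males and 0.74 and -0.12 in the females. Both males lay above both females in both arms in 7 of the 14 opposite-phase genes (50%; all genes 11.5%), and both females above both males in 5 of the 6 Arntl-phase genes (83.3%; all genes 11.6%). They included Arntl, Npas2, Nfil3 and Cry1. Bhlhe41 was opposite in the arms, with males higher by 0.63 in the controls and lower in the E171 arm (-0.61), and Per2, Wee1 and Cry2, higher in the control females, overlapped between the sexes there. At 21 days the male minus female difference in Nr1d1 was -0.70 in the controls and -1.13 in the E171 arm, against 5.48 and 5.85 at 2 days, and in Dbp 0.23 and -0.55, against 3.45 and 4.01. Hlf kept its difference, with males higher by 1.45 and 1.44 at 21 days and by 0.98 and 1.43 at 2 days. Per2 was higher in males at 21 days in both arms (0.73 and 0.42). The control group of 21 days held a single male. Sex and any difference in the hour or order of killing cannot be told apart with these labels.

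In the controls the means of Dbp, Ciart, Arntl and both clock lists at days 7 and 14 lay nearer to 2 days than to 21 days. This does not cover every clock gene. The 7-day controls also varied in tissue content, with array medians from -0.72 to 5.34 for neutrophil and -5.03 to 0.62 for surface colonocyte genes. Dbp had a mean of 1.76 at 7 days and 2.09 at 14 days, and Ciart -5.57 and -5.49, both below their 2-day means of 2.38 and -4.99. Single arrays were spread: at 7 days Dbp read 0.92 and -0.30 in the males and 3.41 and 3.02 in the females, the reverse of the order of the sexes at 2 days. At 14 days it read 4.68 on the array labelled male-2, which carried Xist against its label, and 1.08 to 1.32 on the other 3. Arntl had means of -1.47 and -1.43, between -1.35 at 2 days and -3.60 at 21 days. The Arntl-phase list, relative to the mean of all 31 arrays, had group means of 0.35, 0.06, 0.13 and -0.64 at 2, 7, 14 and 21 days, so its middle days did lie between the ends. The list median of the opposite-phase genes on that scale was 0.70 to 1.26 on the 21-day control arrays and at most 0.63 on the control arrays of 2, 7 and 14 days. In the E171 arm the 4 arrays of 21 days ranged from 0.99 to 1.34, and the highest array reached 0.90 at 2 days, 0.09 at 7 days and 0.90 at 14 days.

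**Figure D2:**
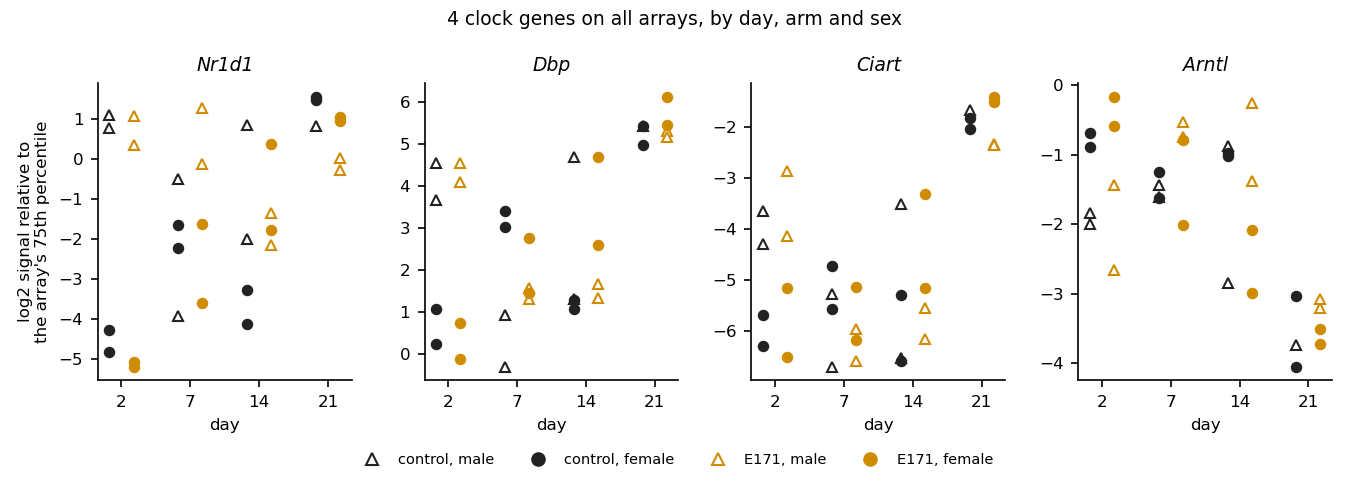
Log2 signal of Nr1d1, Dbp, Ciart and Arntl, relative to the 75th percentile of the array, on all 31 arrays by day, with controls in black, the E171 arm in orange, open triangles for males and filled circles for females as labelled. At 21 days Ciart lies between -2.37 and -1.41 on all 7 arrays of both arms, above every array of the earlier days.

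E2f2, a cell cycle transcription factor, was among the 12 largest decreases. It read 0.73 and 0.94 in the 2-day males and 1.95 and 2.15 in the 2-day females, against -0.89, -0.92 and -0.44 at 21 days. The 2-day females were the high ones, and the decrease of 2.19 (SE 0.54) held as a DEG without any 1 array. The 30 tested proliferation genes all had differences below 0 (median -0.40), but in limma 0 were DEG and 0 had an unadjusted p below 0.05. The median was -0.02 within scan day 1 and -0.20 without the female-2 array of 2 days. Without the male-1 array of 2 days it was -0.77 and 7 were DEG, while the DEG over all genes rose from 715 to 1032. Mki67, the proliferation marker, differed by -0.16 (SE 0.36).

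Interferons induce a set of antiviral and antigen-presentation genes through STAT and IRF factors, and the CXCR3 chemokines CXCL9 and CXCL10 that draw T and NK cells into inflamed mucosa are part of it. DSS colitis is known to engage this programme, but the part of DSS in the values below was not tested. Of 39 interferon-stimulated genes tested, 15 were DEG lower at 21 days (38.5%, against 1.48% of all genes) and 0 were DEG higher. Only Cxcl11 and Ifi27 had differences above 0, and the list median was -1.17. Since tissue was measured in bulk, fewer cells of a type and less RNA per cell cannot be told apart.

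Cxcl10 showed the largest of these decreases. It read -1.82 and 0.41 in the 2-day males and 1.01 and 1.55 in the 2-day females, against -2.28, -3.20 and -2.64 at 21 days. The male-1 array of 2 days lay near the 21-day level, and the difference was -2.99 (SE 1.07), a 7.94-fold lower signal (unadjusted p = 0.00954, adjusted p = 0.899). Stat2, a transducer of the type I response, read -0.45 and -0.24 in the 2-day males, 0.48 and 0.45 in the 2-day females and -1.18, -1.23 and -0.97 at 21 days (-1.19, SE 0.45). The groups did not overlap, and Stat2 kept its DEG call without any 1 array. Gbp7, a guanylate-binding GTPase, fell by 1.43 (SE 0.59) and Irf1 by 1.05 (SE 0.46), both without overlap. Irgm1, an immunity-related GTPase, fell by 1.25 (SE 0.52) with overlapping groups.

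Promoter windows of 4 of these DEG are shown for the interferon-stimulated response element (ISRE, searched as GAAANNGAAA on either strand, in capitals), the site of STAT and IRF complexes. They lie at chr5:92349068-92349127 (minus strand), chr10:128270251-128270310 (plus strand), chr3:142530258-142530317 (plus strand) and chr11:48871421-48871475 (minus strand).
Cxcl10: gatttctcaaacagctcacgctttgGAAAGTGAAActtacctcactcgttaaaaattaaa
Stat2: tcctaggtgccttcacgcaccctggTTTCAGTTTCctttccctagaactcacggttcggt
Gbp7: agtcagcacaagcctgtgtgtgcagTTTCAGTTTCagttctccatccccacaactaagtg
Irgm1: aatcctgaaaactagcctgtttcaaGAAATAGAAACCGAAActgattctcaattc
The matches began 213, 222 and 53 bases before the start in Cxcl10, Stat2 and Gbp7, and 30 and 24 bases before it in Irgm1, where 2 matches overlap each other. An ISRE was present in 16 of 27 listed genes with a promoter in the table (59.3%), in 5 of the 11 such DEG, and in 510 of 15531 tested genes (3.28%).

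The number of interferon DEG turned on which arrays of either day were used, while the median difference stayed between -1.51 and -0.96 as single arrays were left out. The list median on single arrays, relative to the mean of the 7, was -0.58 and 0.43 in the 2-day males and 1.01 and 1.12 in the 2-day females. It was -0.92 in the male and -0.55 and -0.68 in the females of 21 days, so the male-1 array of 2 days lay among the 21-day arrays. In all 15 DEG both females of 2 days were above both males, an order held by 3909 of the 19845 genes tested. The DEG numbered 24 without that array and 8 without the male-2 array of 2 days. They numbered 2 without the female-1 and 3 without the female-2 array of 2 days. Of the 21-day arrays, leaving out male-1 gave 2 and leaving out female-2 gave 6. T cell genes (list median -2.33), B cell genes (-2.03) and NK and cytotoxic genes (-1.46) were also low on the male-1 array of 2 days; their part in the result was not tested. Over all 7 arrays none of 19 T cell, 15 B cell or 12 MHC class II genes was a DEG or had an unadjusted p below 0.05 in limma, with medians of -0.70, -0.70 and -0.79. These medians rested on single arrays: without the female-1 array of 21 days the B cell median was 0.70, of opposite sign, the T cell median -0.0 and the MHC class II median -0.14. Without the male-1 array of 2 days they were -1.35, -1.70 and -1.43. The number of DEG reached 5 for T cell, 1 for B cell and 4 for MHC class II genes as arrays were left out.

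Of 12 NK and cytotoxic genes all had differences below 0 and 2 were DEG (16.7%, against 1.48% of all genes lower). Gzmb, granzyme B, read -3.42 and -0.44 in the 2-day males, 0.76 and 1.25 in the 2-day females and -3.13, -3.69 and -4.14 at 21 days. The groups overlapped through the male-1 array of 2 days, and the difference was -3.19 (SE 1.01). Gzma, granzyme A, fell by 2.44 (SE 1.08), again with overlap. Ncr1, the defining NK receptor, differed by -0.77 (SE 0.58) and was not a DEG. Without the male-1 array of 2 days 7 of the 12 were DEG. Without either female of 2 days, or either female of 21 days, 1 was.

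Chemokines guide leukocytes into tissue, and the CCR2 ligands CCL2, CCL7 and CCL12 recruit monocytes. Of 50 chemokines and receptors tested, 6 were DEG, all lower at 21 days (12%, against 1.48% of all genes), with a list median of -0.66. Among them were Cxcl9, Cxcl10, Ccl2, Ccl7 and Ccl12. Ccl12 read 0.14 and 0.32 in the 2-day males, 0.51 and 0.75 in the 2-day females and -0.20, -0.98 and -1.5 at 21 days (-1.32, SE 0.40). The groups were apart and it was a DEG without any 1 array. Ccl2 fell by 2.03 (SE 0.82) and Ccl7 by 1.68 (SE 0.67), without overlap, while Ccr2, the receptor, differed by -1.04 (SE 0.55) and was not a DEG. The count was 12 without the male-1 array of 2 days and 3 without the female-2 array of 2 days.

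Among 36 interleukins and inflammatory cytokines, 2 were DEG (5.56%, beside 3.6% of all genes in either direction) and both were lower, Tnf (-1.13, SE 0.51) and Csf2, which encodes GM-CSF (-1.53, SE 0.70). The count was 0 without the female-1 or female-2 array of 2 days or the female-1 array of 21 days, 1 without the male-1 array of 21 days, and 5 without the male-1 array of 2 days or the female-2 array of 21 days. Il1b (-1.75, SE 1.26) and Ifng (-2.18, SE 1.10) were not DEG. Of the 36 genes 23 were below 0 and 13 above, with a median of -0.26. Of 18 macrophage and monocyte genes 3 were DEG, all lower (16.7%, against 1.48% of all genes): Fcgr1, the high-affinity IgG receptor (-1.12, SE 0.45), Cd14, the co-receptor for lipopolysaccharide (-0.91, SE 0.40), and Ly6c2, carried by inflammatory monocytes (-1.10, SE 0.53). Adgre1, the general macrophage marker F4/80, differed by -0.44 (SE 0.32) and was not a DEG, and none of the 16 neutrophil genes was, nor had any an unadjusted p below 0.05. The macrophage list as a whole was little lower, with 11 members below 0, 7 above and a median of -0.14 (all genes: -0.02). Its DEG count was 0 without the male-1 array of 21 days and at most 3 otherwise. Mcpt8, a basophil protease, was among the 12 largest decreases (-2.21, SE 0.82). It was above background on all 4 arrays of 2 days and on 1 of 3 at 21 days.

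**Figure D3:**
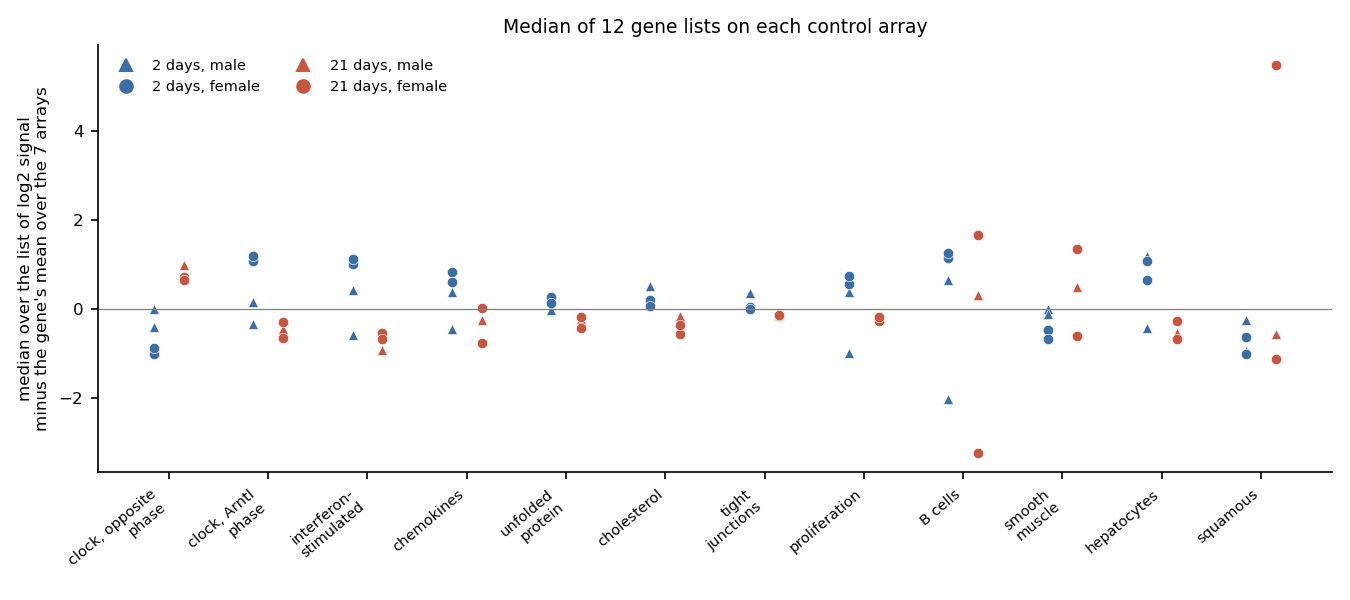
Median over the genes of 12 lists of the log2 signal minus the gene's mean over the 7 control arrays, with 2 days in blue, 21 days in red, triangles for males and circles for females. The opposite-phase clock, unfolded protein, cholesterol and tight junction lists separate the days, the interferon list overlaps through 1 male of 2 days at -0.58, and the squamous list is high on 1 array of 21 days at 5.50.

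The unfolded protein response adjusts the folding capacity of the endoplasmic reticulum (ER). Its ATF6 and XBP1 branches induce chaperones through ER stress elements, and its PERK branch acts through ATF4 and CHOP (Ddit3). Secretory cells such as goblet cells and plasma cells depend on it. Of 24 genes 7 were DEG, all lower at 21 days (29.2%, all genes 1.48%), 12 did not overlap with lower values at 21 days (all genes 5.23%), and the median was -0.35. The 7 were Calr, Hspa5, Pdia6, Manf, Sdf2l1, Creld2 and Hsp90b1, ER chaperones and folding factors. Of the PERK branch, Atf4, Ddit3, Trib3 and Chac1 had differences above 0 and were not DEG.

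Calr, the lectin chaperone calreticulin, read 5.16 and 4.54 in the 2-day males, 4.89 and 4.71 in the 2-day females and 4.00, 3.85 and 4.10 at 21 days. It fell by 0.84 (SE 0.21), a 1.79-fold lower signal (unadjusted p = 0.000583, adjusted p = 0.714). Hspa5 (BiP), the main ER chaperone, read 3.95, 3.59, 4.22 and 4.07 in the same order at 2 days and 3.1, 2.82 and 3.0 at 21 days (-0.98, SE 0.30). Pdia6, a disulphide isomerase, fell by 0.84 (SE 0.25), Manf, a secreted ER stress factor, by 0.82 (SE 0.23) and Sdf2l1 by 1.06 (SE 0.42). In each of these 5 genes the arrays of both sexes at 2 days lay above all 21-day arrays, and Calr, Hspa5, Pdia6 and Manf were DEG without any 1 of the 7 arrays. The count over the list ranged from 4, without the female-1 array of 2 days, to 8. All 14 plasma cell genes tested also had differences below 0 (median -0.61), with 0 DEG and 0 at an unadjusted p below 0.05 in limma. Their list median was 0.04 to 0.45 on the 2-day arrays and 0.16, -1.33 and 0.12 on the male-1, female-1 and female-2 arrays of 21 days, and the median difference was -0.09 without that female-1 array. Goblet cell genes had 1 DEG of 18, lower (5.56%, all genes 1.48%), and a median of -0.22, which was 0.12 without the same array. The part of these cells in the unfolded protein result was not tested.

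Windows of 3 of these promoters are shown for the ER stress element (searched as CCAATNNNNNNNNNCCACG on either strand, in capitals), at chr2:34772000-34772068 (plus strand), chr8:84847050-84847118 (minus strand) and chr12:17266466-17266534 (plus strand).
Hspa5: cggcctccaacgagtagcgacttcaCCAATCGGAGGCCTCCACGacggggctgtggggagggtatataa
Calr: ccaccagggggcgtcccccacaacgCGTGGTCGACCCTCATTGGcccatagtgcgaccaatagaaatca
Pdia6: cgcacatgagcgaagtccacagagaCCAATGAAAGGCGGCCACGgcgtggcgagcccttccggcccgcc
The matches began 65, 162 and 98 bases before the start. The element was present in 7 of 20 listed genes with a promoter in the table (35%), in 5 of the 6 such DEG, and in 24 of 15531 tested genes (0.155%). The clock, interferon, unfolded protein and cholesterol lists were made of known targets, so the motif shares say nothing of the days.

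Cholesterol is made by cells through the mevalonate pathway, whose genes respond together to SREBP2 when membrane sterol is low. All 23 genes tested had differences below 0 (median -0.63), with 6 DEG (26.1%, all genes 1.48%) and 14 without overlap (all genes 5.23%). Fdps, farnesyl diphosphate synthase, read 4.87 and 4.53 in the 2-day males, 4.65 and 4.72 in the 2-day females and 4.09, 3.48 and 3.38 at 21 days. It fell by 1.05 (SE 0.28), and the groups were apart. Cyp51, the lanosterol demethylase, read 1.11, 0.54, 0.40 and 0.25 in the same order at 2 days and -0.21, -0.79 and -0.66 at 21 days (-1.13, SE 0.36). Pmvk and Mvd, which act early in the pathway, fell by 0.84 (SE 0.25) and 0.99 (SE 0.40), Sqle, squalene epoxidase, fell by 0.67 (SE 0.25), and Fdft1, squalene synthase, was the sixth DEG. Of the pan-epithelial genes 13 of 16 had differences below 0 (median -0.18), with 0 DEG and 0 at an unadjusted p below 0.05 in limma. Their array medians were 0.31 and -0.07 in the 2-day males, 0.10 and -0.04 in the 2-day females and -0.14, -0.28 and -0.08 at 21 days, without overlap. Their part in the cholesterol result was not tested. The DEG numbered 3 without the female-1 array of 21 days and 9 without the male-1 array of that day. The sterol regulatory element that SREBP2 binds, searched as TCACNCCAC on either strand, was found in 1 of 15 listed genes with a promoter in the table (6.67%), in 0 of the 3 such DEG and in 188 of 15531 tested genes (1.21%).

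**Figure D4:**
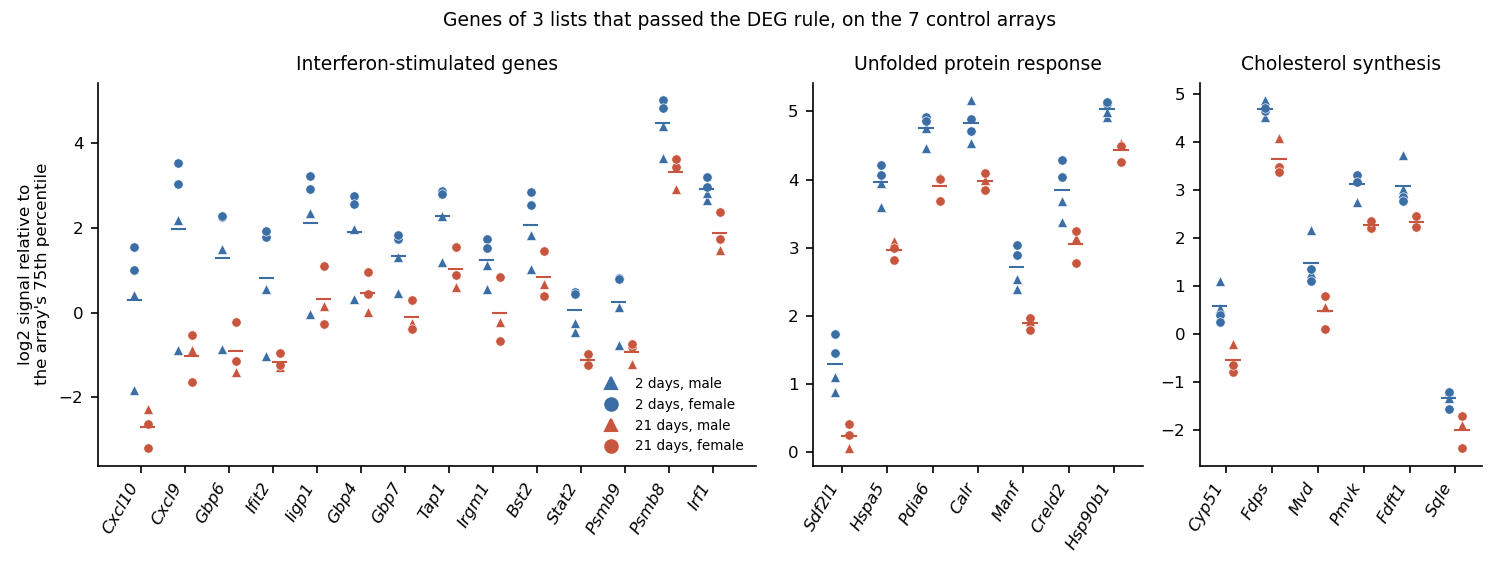
Log2 signal, relative to the 75th percentile of the array, of DEG in the interferon (14 of 15 genes), unfolded protein (7) and cholesterol (6) lists, with 2 days in blue, 21 days in red, triangles for males, circles for females and bars at the means. Both females of 2 days lie above both males in every interferon gene plotted and in 6 of the 7 unfolded protein genes, and in none of the 6 cholesterol genes.

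Of the epithelial lists few members passed. Tight junction genes had 1 DEG in each direction among 24 tested (8.33%, beside 3.6% of all genes in either direction), and 0 without the female-1 array of 21 days. Cldn1, claudin 1, read -2.73 and -2.28 in the 2-day males, -2.83 and -3.13 in the 2-day females and -1.32, 0.50 and -1.5 at 21 days, with the highest value on the array high in squamous genes (1.97, SE 0.72). Retnlb, a bactericidal protein of goblet cells that is induced by inflammation, had the largest of the 12 named decreases. It read 1.89 and 2.62 in the 2-day males, 3.48 and 4.55 in the 2-day females and -2.13, -2.94 and 1.5 at 21 days. The 21-day arrays were spread widely, and the difference was -4.32 (SE 1.94), a 20-fold lower signal (unadjusted p = 0.0353). It was a DEG in 3 of the 7 fits with an array left out. Muc2, the goblet cell mucin, was not a DEG, and among 20 surface colonocyte and 18 enteroendocrine genes none was, nor had any an unadjusted p below 0.05. Lgr5, the crypt stem cell marker, differed by 0.28 (SE 0.99).

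Smooth muscle, neuronal and glial genes were mostly above 0, with few DEG. All 17 smooth muscle genes had differences above 0 (median 0.78), and Tagln was the 1 DEG (0.79, SE 0.35; all genes 2.12%). Of 20 enteric neuron and glia genes 19 were above 0 with 2 DEG, Cdh19 (1.35, SE 0.59) and Stmn2 (1.14, SE 0.52), and Lum, the proteoglycan lumican, was the 1 DEG of 16 fibroblast genes (1.05, SE 0.44). As arrays were left out these counts ran from 0 to 5 for neurons and glia and from 0 to 4 for fibroblasts. Among 26 matrix metallopeptidases and their inhibitors 4 were DEG, all higher (15.4%, against 2.12% of all genes): Mmp24, Mmp16, Timp3 and Timp2. The list as a whole was not higher, with 15 members below 0, 11 above and a median of -0.07, which was 0.07 without the male-1 array of 21 days. The DEG count was as low as 1 with an array left out. The smooth muscle list median was 1.36 on the female-1 array of 21 days and -0.62 on female-2 of the same day. Smooth muscle DEG numbered 12 without the latter array and 0 without the former. How much muscle each piece held was not given in the sources used here.

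Of the 12 largest decreases 5 were transcripts known mainly from liver: Mbl2 (mannose-binding lectin), Fgb (fibrinogen beta), Serpina3k, Mup20 (a urinary protein) and Apof (apolipoprotein F). Fabp1, fatty acid binding protein 1, is made by liver and by enterocytes alike. Mbl2 read -3.15 and -6.40 in the 2-day males, -4.10 and -3.51 in the 2-day females and -8.41, -6.45 and -8.27 at 21 days (-3.42, SE 1.10). Fgb read -1.82, -5.06, -3.22 and -2.79 in the same order at 2 days and -7.21, -5.14 and -6.86 at 21 days (-3.18, SE 1.15). For 5 of these 6 genes the male-1 array of 2 days gave the highest value (Apof: -5.16, against -5.15 on female-2), and for Mbl2 the lowest 2-day and the highest 21-day value differed by 0.05. At 21 days Mbl2, Fgb and Serpina3k were well above background on 1 of 3 arrays, and Fabp1 and Mup20 on 2 of 3, so their differences depend on readings near background there. Mbl2 was also not above it on 1 of the 4 arrays of 2 days. Apof was not above background on any array of 21 days and was at least 1.63-fold lower. Among 25 other settings the result was weaker in 9 for Fabp1, 6 for Mup20 and 5 for Serpina3k. It was weaker in 3 for Apof, 1 for Fgb and 0 for Mbl2. Of the 10 hepatocyte genes, 2 were DEG lower (20%, against 1.48% of all genes; Fgb and Ahsg; 1 to 4 as arrays were left out), the list median was -1.17, and Alb, albumin, differed by -1.93 (SE 1.20) without being a DEG. The hepatocyte list median was 1.19 and -0.42 in the 2-day males, 0.65 and 1.07 in the 2-day females and -0.54, -0.28 and -0.67 at 21 days, so 3 of the 4 arrays of 2 days were above all of 21 days. Whether liver RNA entered the samples was not tested. Mfsd2a, a lipid transporter, completed the 12 (-2.16, SE 1.01) and was a DEG in 1 of the 7 fits with an array left out.

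The 12 largest increases held 2 clock genes, Ciart and Dbp, and 7 genes whose signal was well above background on at most 1 of the 4 arrays of 2 days. Atp13a4, a P5-type ATPase, read -8.16 and -6.05 in the 2-day males, -7.57 and -8.04 in the 2-day females and -3.21, -1.44 and -3.71 at 21 days. Its signal was well above background on 1 of 4 arrays at 2 days and on all 3 at 21 days, so the difference of 4.67 (SE 1.25) depends on readings near background, and it was 2.52 with normexp background correction. It was a DEG without any 1 array. Gpnmb, a glycoprotein of lipid-laden macrophages, read -3.23, -3.52, -3.01 and -3.07 in that order at 2 days and -2.19, 0.89 and 0.52 at 21 days (2.95, SE 0.96). The 21-day females were the high ones. Inmt, an N-methyltransferase, was higher by 3.17 (SE 1.0), with its highest value, 2.34, on the female-1 array of 21 days. Nat8f5, an acetyltransferase, was higher by 2.72 (SE 0.86).

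For 6 of the increases the 2-day signal was not well above background on any of its 4 arrays, so the fold is a lower bound. Defa3 and Defa40, Paneth cell alpha-defensins, were at least 5.45-fold and at least 4.28-fold higher, Lct, lactase, at least 3.48-fold, Otop2, a proton channel, at least 3.34-fold, Prss56 at least 2.24-fold and Ppp1r3g at least 1.51-fold. Each of the 6 was highest on the female-1 array of 21 days, which also carried the squamous genes. The alpha-defensins are near-identical copies whose probes may share signal, and the pair counts as uncertain. Defa3 was a DEG in 2 and Defa40 in 4 of the 7 fits with an array left out.

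The E171 arm gave the same contrast in 8 other mice that had the same AOM and DSS. There 0 genes had an adjusted p below 0.05 in limma (smallest 0.0574; 2640 at an unadjusted p below 0.05), 413 were DEG higher (2.08%) and 1059 lower (5.34%) at 21 days. Of the 715 control DEG, 608 (85.0%) had the same sign in the E171 arm, 276 of the 294 lower ones (93.9%) and 332 of the 421 higher ones (78.9%), beside 63.1% of all genes tested. DEG of the same sign in both arms numbered 202, which is 28.3% of the control DEG. Tested directly, the change differed between the arms in 0 genes at an adjusted p below 0.05 in limma and in 624 at an unadjusted p below 0.05.

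Comparing list by list, with 2.08% of all genes DEG higher and 5.34% lower in the E171 arm, the opposite-phase clock median was 1.40 in the controls and 1.09 in the E171 arm (6 of 14 DEG), and the Arntl-phase median was -0.79 and -1.12 (2 of 6 DEG). Ciart was higher in the E171 arm by 2.77 (SE 0.73), Dbp by 3.19 (SE 1.06) and Arntl lower by -2.17 (SE 0.53). The interferon median was -1.17 and -1.33 (22 of 39 DEG lower, 1 higher), with 12 genes DEG in both arms. Lymphoid lists were low in that arm as well: T cell genes had a median of -1.23, with 19 of 19 below 0 and 2 DEG, NK and cytotoxic genes -1.19, with 12 of 12 below 0 and 6 DEG, and MHC class II genes -1.0, with 12 of 12 below 0 and 2 DEG. Their part in the interferon values was not tested. For the unfolded protein response the medians were -0.35 and -0.17, and for cholesterol synthesis -0.63 and -0.39, with 2 and 1 genes DEG in both arms. Manf fell by 0.82 in the controls and differed by -0.01 (SE 0.22) in the E171 arm, and Bhlhe41 differed by 1.27 and -0.02 (SE 0.37). These 2 are named because their values parted, so no test of the difference is given. The stromal lists had smaller or negative median changes in the E171 arm: the smooth muscle median was 0.78 in the controls and -0.26 in the E171 arm, with 17 and 6 of 17 genes above 0, and that of enteric neurons and glia 0.50 and -0.06, with 19 and 8 of 20 above 0. The fibroblast medians were 0.38 and 0.07. These list differences between the arms were not tested.

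**Figure D5:**
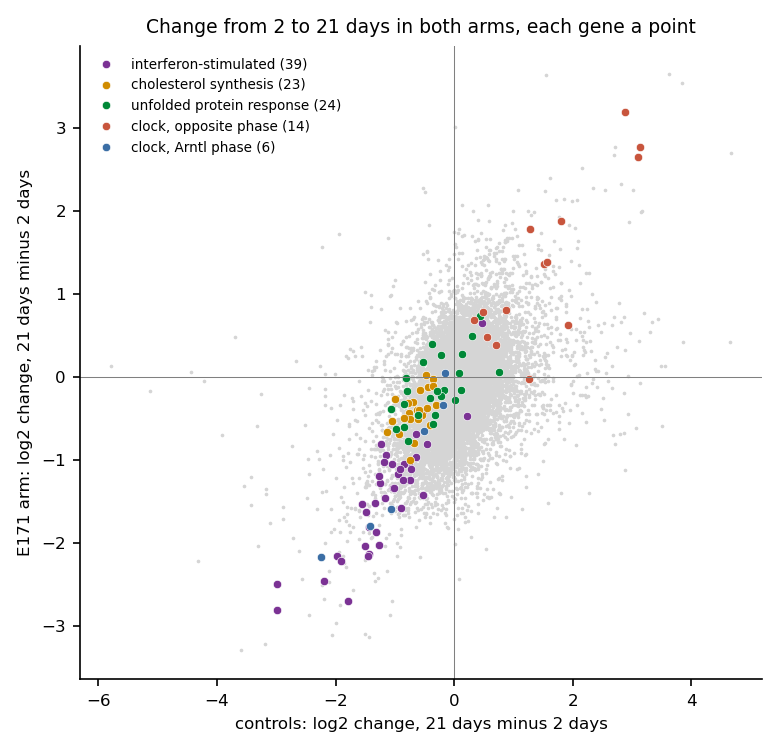
Log2 change from 2 to 21 days of each of 19845 genes (grey) in the controls (horizontal axis) and in the E171 arm (vertical axis), with the members of 5 lists coloured and their number in brackets. Interferon genes lie low on both axes (medians -1.17 and -1.33) and opposite-phase clock genes high on both (1.40 and 1.09), while cholesterol genes are all below 0 in the controls.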

How the data were processed

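RNA of the distal colon was hybridised in one colour to Agilent mouse arrays, 1 mouse per array. The authors deposited scanner output of Feature Extraction 10.7.3.1 for each array, whose processed signal is an intensity corrected for background within the array, with probe positions on mm9. They also deposited a table of log2 values after their own spot filter and imputation, used as an alternative only. The method of its between-array normalization is not given in the sources used here.

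Here log2 of the processed intensity had the 75th percentile of the 59305 non-control spots of its array subtracted. Unflagged spots of each of the 56605 non-control probes were then averaged. Probes were kept (42787) if, in at least 1 of the 8 groups, they were present on at least 60% of the arrays with a mean log2 signal of at least 4, after the study's methods. Probes were named through RefSeq accessions (33903), symbols (9458) or synonyms (488), 12756 were unnamed, and probes of a gene were averaged, giving 19845 genes. limma 3.58.1 in R 4.3.3 was fitted with 8 groups (exposure and day) over 31 arrays, with Benjamini-Hochberg adjustment. The fit was tested on simulated data. Between 70.4% and 76.3% of spots were well above background on the 7 arrays, and their number limits the precision. The p-values measure the spread between single mice.

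Fewer than 50 genes passed the adjusted p, so lists were counted by DEG. Named genes were the 12 largest increases and decreases among DEG whose arrays did not overlap, leaving out clone and predicted names, up to 5 members of smallest p with the defining marker of each list described, and all clock genes. Other DEG of the interferon, chemokine, unfolded protein and cholesterol lists are named as complete counts. A few members of these lists are counted but not reported here by name. The members, lists and tests were chosen with earlier results of these data known. Shared replicate numbers were checked for pairing (correlations 0.061, -0.0884 and 0.294) and do not pair the mice. One 14-day control array labelled male carried Xist, and it is in the fit. Promoters (250 bases before the start) came from RefSeq on GRCm38.p6. In all, 55 lists were examined: 27 had 0 DEG and 6 had array medians that did not overlap between the days.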

Additional observations from a re-analysis of the deposited data

Results flagged for a closer look

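In 3 of 80 groups of 4 arrays examined, 1 array lay far from the others of its group, where chance gives about 1 in 20. Nat8f5 was lowest on the female-2 array of 2 days, at -6.12 against -5.38 to -5.25 on the others. Clock was highest on the male-2 array of 2 days, at -1.03 against -1.25 to -1.22. The median of the tight junction list was highest on the male-1 array of 2 days, at 0.36 against 0.00 to 0.05, and this array also carried the highest cholesterol and hepatocyte medians of its group.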

How the results depend on the processing

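Under 25 other settings, which include leaving out each of the 7 arrays, no DEG among the 24 largest changes and the clock genes, and none of the 6 list medians given below, changed sign where a value could be had. Mbl2, Lct, Ppp1r3g and Prss56 had no value under 2 of these settings and Apof, Defa3 and Defa40 under 1, the stricter filter or the authors' values. Per2, not a DEG, was at -0.10 among females. Of all 55 lists, the medians of 17 turned sign without some 1 array, among them B cells (-1.71 to 0.70), adipocytes (-0.44 to 0.59), goblet cells (-0.44 to 0.12) and surface colonocytes (-0.40 to 0.07). The DEG count, 715, was 1255 with only the 7 arrays fitted, 1403 among females, 1961 with array weights and 159 with a log2 fold change of 1.5 in place of a linear one, and 356 to 1186 as arrays were left out. Genes with an adjusted p below 0.05 numbered 0 in the main setting, 1 with the brightest probe of each gene, 4 within scan day 1 and 50 with array weights. They stayed at 0 as arrays were left out. In the E171 arm they numbered 746 with array weights, 294 among females, 27 with the replicate block, 11 with an intensity trend, 10 with the brightest probe, 7 without the 14-day array of doubtful sex and 6 with quantile normalization. Of the 24 largest changes 14 passed within scan day 1, and 16 to 21 as arrays were left out. Among females the clock medians were 1.78 and -1.41. As arrays were left out, the median ranged from 1.27 to 1.55 for the opposite phase, -1.06 to -0.61 for the Arntl phase, -1.51 to -0.96 for interferon genes, -1.02 to -0.25 for chemokines, -0.41 to -0.30 for the unfolded protein response and -0.74 to -0.54 for cholesterol synthesis. With the replicate number as a block there were 1022 DEG and 0 genes after adjustment, but the numbers do not pair these mice. The cause of these shifts was not tested. Signal near background at 2 days left 6 of the 12 largest increases with a lower bound only.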

Other observations

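The genes below were chosen after their values were seen. Folliculin and its partners form a complex that senses amino acids at the lysosome. Flcn read 0.66 and 0.52 in the 2-day males, 0.53 and 0.24 in the 2-day females and 1.20, 1.14 and 1.37 at 21 days (0.75, SE 0.19, unadjusted p = 0.000445 in limma). Fnip1 was higher by 0.65 (SE 0.17) and Fnip2 by 0.89 (SE 0.20), and in none of the 3 did the groups overlap. All 3 were DEG without any 1 of the 7 arrays. In the E171 arm Flcn was higher by 0.71, Fnip2 by 0.67 and Fnip1 by 0.20.

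Pdia3, a disulphide isomerase that works with calreticulin and was in no list, fell by 1.11 (SE 0.28). It read 3.14 and 2.87 in the 2-day males, 2.93 and 3.02 in the 2-day females and 2.06, 1.80 and 1.79 at 21 days. Dhx38, a splicing helicase, had the smallest unadjusted p of those chosen here (7.7e-05 in limma) with a decrease of 0.85 (SE 0.18), and its E171 value was -0.75. The adjusted p of these genes was 0.714.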
